A study of Homo sapiens with 12 samples.

Results

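The 7SL RNAs RN7SL2 and RN7SL3 and the long non-coding RNA MALAT1 were followed through RNA sequencing of 3 breast cell lines. The 3 genes were chosen by name from the tables of genes that the authors deposited for each cell line, and those tables hold only genes selected on an unadjusted p-value under 0.05 for cells that passed constrictions against control cells. The read counts, normalised counts and FPKM values of these genes therefore come from the libraries that put them in the tables, and they are given as a description with no test. The 3 genes fill 5 of the 3158 rows of the tables, which name 3090 distinct genes. RN7SL2 is listed in all 3 cell lines, and RN7SL3 and MALAT1 are listed in MDA-MB-231. The level of RN7SL3 and MALAT1 in MCF-10A and LM2 was not analysed here, because the tables for those cell lines do not list them.

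MDA-MB-231 was grown from a triple negative breast cancer. LM2 is its derivative that metastasises to the lung, and MCF-10A comes from breast epithelium that is not malignant. Cells in the constriction groups were drawn through channels 5 µm wide, 5 µm high and 150 µm long at a pressure of 7 to 33 cmH2O, and control cells of the same line did not pass a channel. Each of the 6 groups has 2 libraries, 12 in all, made from RNA enriched for poly-A tails, and the total behind a library was between 29978695 and 53584754 reads. These are bulk libraries, in which more cells with a transcript and more transcript per cell cannot be told apart. With 2 libraries per group, the spread within a group rests on a single difference.

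7SL RNA is the RNA of the signal recognition particle, the complex that binds the signal peptide of a growing secretory or membrane protein and brings the ribosome to the endoplasmic reticulum. It is made by RNA polymerase III, its genes are a few near-identical copies, and the Alu repeats and a large family of 7SL pseudogenes descend from it. MALAT1 is an abundant RNA of the nucleus that gathers in nuclear speckles, the compartments that hold splicing factors. Neither RNA follows the usual route to a poly-A tail. Polymerase III transcripts end in a short run of U, and the 3′ end of MALAT1 is cut by RNase P in front of a small tRNA-like RNA called mascRNA, which leaves an A-rich end that is encoded in the gene. How much of each RNA the poly-A enrichment kept in each group was not tested.

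The annotated 7SL genes are so alike that a read can match several of them. How the authors' counting treated such reads is not given in the sources used here, so it is uncertain which copy the reads counted for RN7SL2 came from. RN7SL1, the third annotated copy, is not listed in any of the 3 tables.

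In MDA-MB-231, RN7SL2 was read 3533 and 2662 times in constriction replicates 1 and 2, against 180 and 190 times in the controls. Divided by the authors' size factor of each library, these are normalised counts of 3452 and 2459 against 228 and 163. Both constriction libraries lay above both control libraries, and the lowest constriction value was 10.8 times the highest control value. The lack of overlap is common in this selected table, where 360 of the 381 genes show it. The mean normalised counts were 2956 ± 702 for the constriction group and 196 ± 45.9 for the control group (SD, n = 2 each), a 15.1-fold difference or a log2 difference of 3.91 with a standard error of 0.34, on the log2(normalised count + 1) scale. The 2 constriction libraries differed from each other 1.40-fold, and so did the 2 control libraries. On the FPKM scale, which divides reads by gene length and library total, RN7SL2 stood at 248 and 179 after transit, against 16.1 and 11.8 in control cells.

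By the quasi-likelihood test of edgeR, with Benjamini-Hochberg adjustment over 23976 genes, 1 gene of the MDA-MB-231 table was called at an adjusted p under 0.05, which is 0.262% of the 381 listed genes. With the replicate number as a block, 86 genes of this table were called. Without either of the constriction libraries edgeR called 0, with 270 genes (without replicate 1) and 285 genes (without replicate 2) at an unadjusted p under 0.05. It called 7 without control replicate 1 and 8 without control replicate 2, whereas with all 4 libraries DESeq2 called 9 and limma 0. Nothing is read from these calls for the 3 genes, since the table was selected on the same libraries.

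In MCF-10A, RN7SL2 was high in 1 library. The normalised count was 1589 in constriction replicate 1 and 52.8 in constriction replicate 2, against 94.0 and 49.0 in the control libraries, from 1318, 51, 96 and 62 reads. Constriction replicate 2 lay between the control libraries, so the groups overlapped. The log2 difference was 3.50 with a standard error of 1.42 (n = 2 per group), and without constriction replicate 1 it turned to -0.43. It was 1.10 with TMM factors, which rescale the libraries over the listed genes. With the replicate number as a block it was 2.09, a mean of the log2 differences within pairs and not a log2 of group means. Of the 2680 genes listed for MCF-10A, edgeR called 2451 (91.5%), and without constriction replicate 1 this count was 0, without constriction replicate 2 it was 69, without control replicate 1 it was 557 and without control replicate 2 it was 4. At an unadjusted p under 0.05, edgeR without constriction replicate 1 still gave 2495 genes. No MCF-10A call named here is kept without that library, and no more than 4 of the 2451 without control replicate 2, but leaving out any library also leaves only 2 libraries against 1.

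Among the genes of the MCF-10A table, 147 genes averaged 10 or more normalised counts and had a higher mean in the constriction group, each of them with a higher normalised count in constriction replicate 1 than in replicate 2, and for 84 of them, RN7SL2 included, the ratio between the 2 libraries was at least the 29.6 of RN7SL2, computed with 1 added to each value. The median ratio over the 147 genes was 94.8. A gene that is high in a single library can pass this filter through that library alone, so the size of the ratio is partly set by the choice of genes. In MDA-MB-231, 82 of 164 such genes were higher in constriction replicate 1, with a median ratio of 0.996. This measure was chosen after the values had been seen. What sets that library apart was not tested.

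LM2 had the same layout. The normalised count of RN7SL2 was 1671 in constriction replicate 1, 144 in constriction replicate 2, 201 in control replicate 1 and 79.7 in control replicate 2, from 1444, 151, 228 and 79 reads. Constriction replicate 2 again lay between the control libraries. Among libraries of the same replicate number, the normalised count of RN7SL2 was higher after transit in each pair of each cell line. These libraries put RN7SL2 in the tables, so this order adds no separate support. The smallest gap was 52.8 against 49.0, in replicate 2 of MCF-10A, from 51 and 62 reads. The exact Poisson intervals of these reads, 38.0 to 67.1 and 47.5 to 79.5, overlap. That gap therefore cannot be told from counting error. For LM2 the order within pairs rests on the title of constriction replicate 2. Its description gives replicate 1, where the control library stood higher, at 201 against 144. The log2 difference was 2.68 with a standard error of 1.36 (n = 2 per group), and 0.04 without constriction replicate 1. In LM2, 27 genes averaged 10 or more normalised counts and had a higher mean after transit. Of these, 21 were higher in constriction replicate 1 than in replicate 2, with a median ratio of 2.08, and 2 of them, RN7SL2 included, reached the ratio of RN7SL2, 11.5. In LM2, edgeR called 0 of 97 genes (0%), with 40 at an unadjusted p under 0.05. DESeq2 and limma also called 0, and edgeR with the replicate block called 28.

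Set side by side as RPM, the reads per 1000000 of the library total, the levels of RN7SL2 split into a high and a low range. The high range held 4 constriction libraries. These were both MDA-MB-231 libraries at 74.5 and 53.6, constriction replicate 1 of MCF-10A at 44.0 and constriction replicate 1 of LM2 at 38.2. The other 8 libraries ran from 4.84 in MDA-MB-231 control replicate 1 to 1.34 in MCF-10A control replicate 2, and they include constriction replicate 2 of LM2 at 2.97 and of MCF-10A at 1.44. Among control cells the values were 4.84 and 3.55 in MDA-MB-231, 4.43 and 1.67 in LM2 and 2.66 and 1.34 in MCF-10A. LM2 overlapped both of the other cell lines in control cells, and MDA-MB-231 lay above MCF-10A. The tables were normalised separately, so this order across cell lines is a description without a test.

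**Figure D1:**
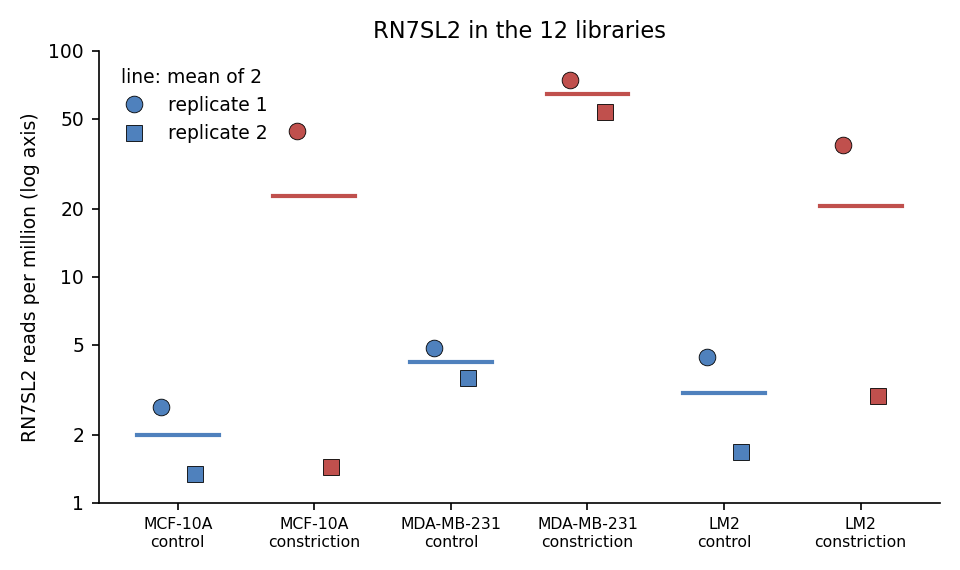
RN7SL2 as RPM, reads per 1000000 of the library total, in the 12 libraries (log axis). Red symbols are constriction and blue symbols control libraries, circles are replicate 1, squares are replicate 2 and lines are the mean of the 2 libraries. Constriction replicate 2 of MCF-10A and of LM2 sits among the control libraries at 1.44 and 2.97, and the other 4 constriction libraries lie between 38.2 and 74.5.

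RN7SL3 had 69 and 58 reads in the MDA-MB-231 constriction libraries and 4 reads in each control library. The exact 95% Poisson interval of 4 reads is 1.09 to 10.2, and it covers counting error only, since the reads carry no molecular identifiers. The normalised counts were 67.4 and 53.6 against 5.07 and 3.44, with no overlap, and a log2 difference of 3.55 with a standard error of 0.28 (n = 2 per group). That difference was 2.31 with 10 added to each value, and with 1 added it was 2.05 on FPKM and 1.08 on RPM. Per length, RN7SL3 stood far below RN7SL2, at an FPKM of 4.87 and 3.90 after transit, against 0.359 and 0.250 in control cells.

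The reads of the pair kept nearly the same proportion in the 4 libraries. For each RN7SL3 read there were 51.2 and 45.9 RN7SL2 reads after transit and, in control cells, 45.0 and 47.5. As a share of the reads of both genes, RN7SL3 made up 1.92% and 2.13% after transit, against 2.17% and 2.06% in control cells. The exact (Clopper-Pearson) 95% intervals were 1.49% to 2.42% and 1.62% to 2.75% after transit and, with fewer reads, 0.595% to 5.47% and 0.565% to 5.19% in control cells. These intervals cover counting error only, and they leave room for a change of the proportion in either direction. Whether the RN7SL3 reads come from RN7SL3 or from transcripts of other copies was not tested.

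**Figure D2:**
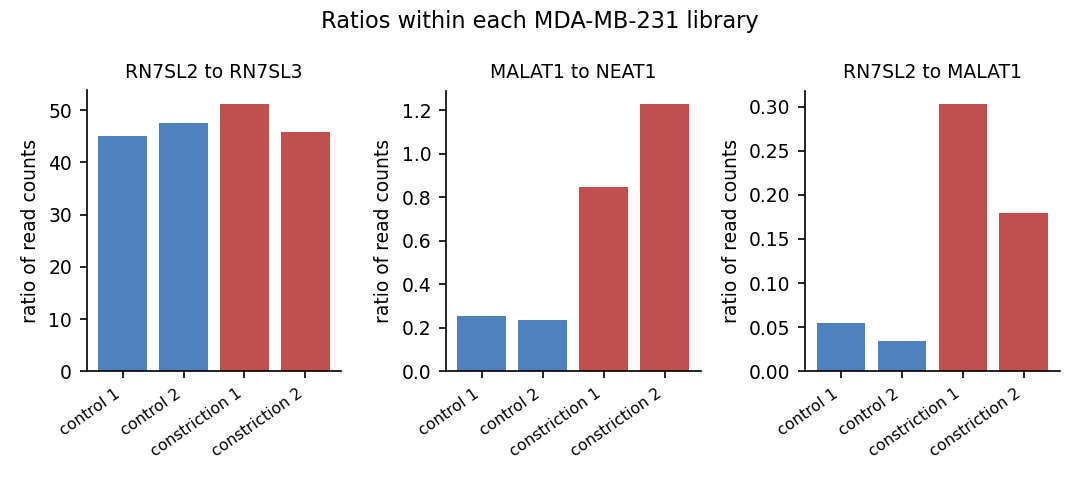
Ratios of read counts within each of the 4 MDA-MB-231 libraries (bars from 0, blue control, red constriction). RN7SL2 to RN7SL3 lies between 45.0 and 51.2 in every library, MALAT1 to NEAT1 is 0.256 and 0.237 in control and 0.848 and 1.23 in constriction libraries, and RN7SL2 to MALAT1 is 0.0553 and 0.0343 in control and 0.303 and 0.179 in constriction libraries.

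GENCODE release 29 annotates 677 7SL pseudogenes, and a few of them are listed. The MDA-MB-231 table holds RN7SL431P, RN7SL181P, RN7SL285P and the 7SL-like gene RF00017, on top of RN7SL2 and RN7SL3. RN7SL431P had 40 and 22 reads after transit against 3 and 7, and RN7SL181P had 41 and 11 against 2 and 5. RN7SL285P had 9 and 19 reads against 0 and 0, whereas RF00017 had 0 and 0 against 5 and 10. So 5 of the 6 listed 7SL genes had a higher mean after transit and 1 a lower mean, with a median log2 difference of 3.06, or 2.47 with groups at 0 reads set to 3 reads per library. Over all 381 listed genes the median was 1.08 on both counts, with 254 higher and 127 lower.

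The MCF-10A table lists 3 pseudogenes that RN7SL2 did not move with. RN7SL381P, RN7SL130P and RN7SL834P had 0 reads in both constriction libraries. In the control libraries they had 6 and 24, 8 and 16, and 8 and 9 reads. They were among the 2402 of 2680 MCF-10A genes with 0 reads in both constriction libraries. All 3 were called lower by edgeR, as were 2447 of the 2680. In LM2, RN7SL306P had 19 reads in constriction replicate 1, the library in which RN7SL2 was high, and 0 in each of the other 3 libraries.

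MALAT1 (ENSG00000251562) is annotated at chr11:65497688-65506516 on the plus strand of GRCh38, over 8829 bases. Its longest transcript in GENCODE release 29 is a single exon of 8708 bases. It holds 1 run of 10 or more A, of 13 bases at positions 8337 to 8349 counted from the 5′ end, and mascRNA begins 6 bases further on and covers 57 bases. Of its length, 396 bases are overlapped by an antisense gene, AP000769.2. Whether the library kept strand is not stated, so reads of that stretch cannot be given to 1 strand. Bases 8237 to 8432 of the transcript, at chr11:65505998-65506193, are shown because they hold the gene's own A-rich stretch, and capitals mark the run of A and mascRNA.
MALAT1: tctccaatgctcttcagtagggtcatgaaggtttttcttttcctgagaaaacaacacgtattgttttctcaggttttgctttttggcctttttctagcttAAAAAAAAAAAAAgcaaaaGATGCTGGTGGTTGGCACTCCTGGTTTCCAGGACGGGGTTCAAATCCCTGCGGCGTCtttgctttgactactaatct
In front of the run of A the sequence holds several runs of T, the U-rich motifs that fold with the A-rich end into a triple helix that protects it.

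In MDA-MB-231, MALAT1 had normalised counts of 11408 and 13742 after transit and 4128 and 4759 for control cells, from 11675, 14876, 3254 and 5533 reads. The groups did not overlap, and the lowest constriction value was 2.40 times the highest control value. The means were 12575 ± 1651 and 4444 ± 446 (SD, n = 2 each), a 2.83-fold difference or a log2 difference of 1.50 with a standard error of 0.17. Its FPKM was 27.9 and 33.9 after transit against 9.90 and 11.7. Per length, RN7SL2 stood 8.91 and 5.27 times above MALAT1 in the constriction libraries and 1.63 and 1.01 times in the control libraries.

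NEAT1, the scaffold RNA of paraspeckles, lies on the same strand as MALAT1 with 52147 bases between them. Its normalised counts were 13453 and 11210 after transit, against 16099 and 20100 for control cells, a log2 difference of -0.55 with a standard error of 0.21 (n = 2 per group), or -0.97 with TMM factors. The neighbours thus differed in opposite directions. MALAT1 to NEAT1 moved from 0.256 and 0.237 reads in control libraries to 0.848 and 1.23 in constriction libraries. The ratio needs no scaling between libraries. Both genes are listed for a difference in these same libraries, so with opposite directions a shift of their ratio follows and adds no separate support. KCNQ1OT1, the long antisense RNA of the imprinted KCNQ1 locus, had 415 and 316 against 183 and 158, a log2 difference of 1.10 with a standard error of 0.22 (n = 2 per group), or 0.69 with TMM factors and 0.06 on FPKM with 1 added. Its FPKM was 0.0978 and 0.0751 after transit against 0.0422 and 0.0375, values that the added 1 far exceeds. Of 24 nuclear and abundant long non-coding RNAs looked for, these 3 are listed in MDA-MB-231, with 2 higher and 1 lower after transit, and 0 are listed in MCF-10A and in LM2. The 24 names do not cover all such RNAs, so these counts hold for the names looked for. Over all genes, 381 are listed in MDA-MB-231, beside 23976 adjusted over. Of the 10 genes looked for beside MALAT1, NEAT1 is the 1 listed.

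**Figure D3:**
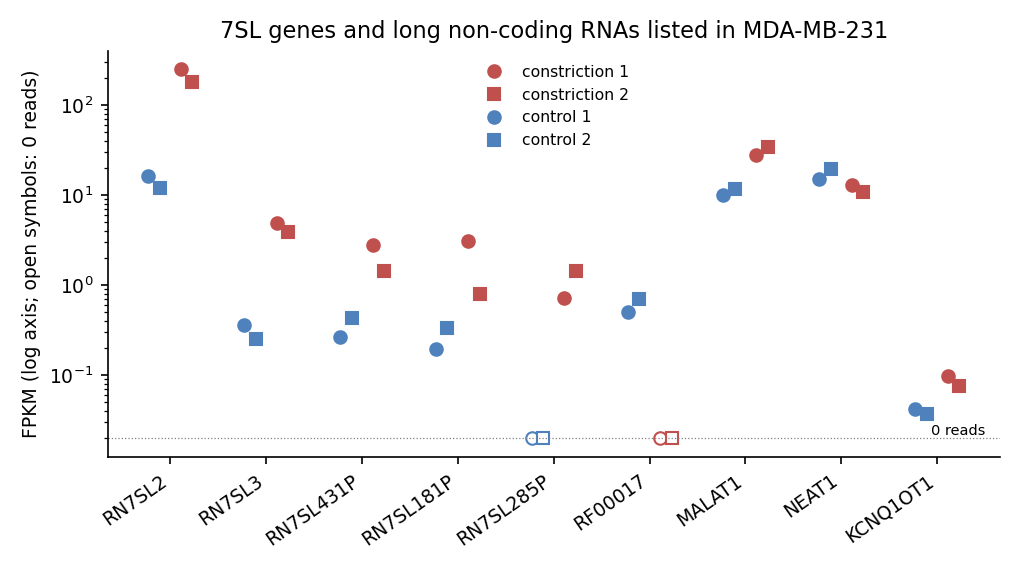
FPKM of the listed 7SL genes and long non-coding RNAs in the 4 MDA-MB-231 libraries (log axis; circles replicate 1, squares replicate 2, open symbols 0 reads drawn at the dotted line). RN7SL2 stands at 248 and 179 after transit against 16.1 and 11.8, MALAT1 at 27.9 and 33.9 against 9.90 and 11.7, and NEAT1 and RF00017 are lower after transit.

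Genes for protein partners of these RNAs were looked for by name, and the names do not cover all such partners. Over all genes, 381 are listed beside 23976 adjusted over in MDA-MB-231 and 97 beside 30209 in LM2. In MCF-10A, 2680 are listed beside 19236. Few listed names are therefore not read as a result about the partners. Of 20 genes for the proteins of the signal recognition particle, its receptor and the translocon, the channel that takes up the growing protein, 0 are listed in any of the 3 cell lines. Of 21 genes for proteins of speckles and paraspeckles, LUC7L3, a splicing factor gene, is listed in MDA-MB-231 with 4298 and 3201 against 5218 and 4900 normalised counts, a log2 difference of -0.43 with a standard error of 0.22 (n = 2 per group). It was -0.84 with TMM factors, -0.66 without constriction replicate 1 and -0.24 without constriction replicate 2. The level of genes that are not listed was not analysed here.

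Other short structured RNAs were listed too. In MDA-MB-231 there were 5, of which 4 had a higher mean after transit (254 of all 381) and 0 were called (1 of all 381). RN7SKP287, a pseudogene of the transcription regulator 7SK, had 61 and 31 reads after transit against 7 and 19. SNORA74D had 21 and 2 reads against 0 and 0, RNU2-25P 10 and 7 against 0 and 0, and RNU6-125P 5 and 12 against 0 and 0. RF00019, a Y RNA-like gene, had 0 and 0 reads against 9 and 13. The median log2 difference of these 5 was 3.17, or 1.12 with groups at 0 reads set to 3 reads per library, beside 1.08 on both counts over the whole table.

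In LM2, 4 such genes were listed and 3 had a higher mean after transit, beside 52 of all 97 listed genes. SNORD3A, the U3 RNA that guides ribosomal RNA processing, had 70 and 43 reads against 9 and 15, and SNORD12C had 60 and 45 against 20 and 17. RNU6-750P had 16 and 7 reads against 1 and 0, and SNORA31 had 0 and 0 against 11 and 10. In these 4 genes the constriction libraries did not overlap the control libraries, and the same was true of 80 of the 97 genes listed for LM2.

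The MCF-10A table lists 48 genes under the short structured RNA names, 43 of them lower after transit and called, and 5 higher and not called. This is close to the whole table, in which 2447 of 2680 genes were called lower. The 43 had 0 reads in both constriction libraries. The 3 with the highest mean reach that rank through constriction replicate 1. RNU6-450P had 513 reads in constriction replicate 1 and 0 in the other 3 libraries, RNU7-49P had 378, 0, 1 and 1, and RN7SKP70 had 389, 28, 5 and 7. The names include SNORC, which is a protein-coding gene. The median log2 difference was -3.61, or -1.49 with groups at 0 reads set to 3 reads per library, beside -4.05 and -1.99 over all 2680 listed genes.

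Replication-dependent histone genes, whose mRNAs usually lack a poly-A tail too, were listed in each cell line. Whether the transcripts read here had a tail was not tested. In LM2 all 3 had a higher mean after transit, as did 52 of all 97 listed genes. HIST1H1E had 77 and 100 reads against 2 and 17, HIST1H4A 15 and 18 against 2 and 1, and the pseudogene HIST1H2APS5 18 and 9 against 1 and 0. In MDA-MB-231, HIST1H1E had 170 and 139 reads against 32 and 53, HIST1H4A 38 and 27 against 2 and 3, and HIST1H4I 493 and 680 against 591 and 1009. By normalised counts HIST1H4I was lower after transit, at 482 and 628 against 750 and 868, a log2 difference of -0.54 with a standard error of 0.22. In MCF-10A, 7 of 8 had 0 reads in both constriction libraries and were called lower, beside 2402 of 2680 listed genes at 0 and 2447 called lower. HIST2H2AC had 627 and 32 reads after transit against 39 and 49 there.

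Mitochondrially encoded genes give a further group, since the mitochondrion makes its own RNA. MT-ATP8 is listed in each of the 3 tables. Its normalised counts were 1895 and 3327 against 415 and 881 in MDA-MB-231, 4454 and 1159 against 522 and 490 in MCF-10A, and 3161 and 775 against 492 and 838 in LM2, where the groups overlap. In MDA-MB-231 it was 1 of 5 listed, with 2 higher and 3 lower after transit and a median log2 difference of -0.82. The lower ones were the tRNA genes MT-TG, MT-TT and MT-TH. MT-ND4L, the other higher one, held most of the normalised counts. The sum of the 5 was 25037 and 46958 against 16564 and 27957, so its mean and the median of the genes differ in sign, but the groups overlap in the sum. They also overlap in MT-ND4L, at 22934 and 43448 against 15783 and 26608. Its log2 difference of 0.65 ran from 0.11 to 1.07 with 1 library left out. In MCF-10A, 5 of 6 were called lower, all of them tRNA genes at 0 reads after transit, a share near the 2447 of 2680 of the whole table, and the summed normalised count of the 6 was 4454 and 1159 against 770 and 623. In LM2, MT-RNR1 was the other listed gene, at 71408 and 42808 against 31297 and 27712.

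Markers of cell type were looked for as a check of the labels. Of 16 epithelial markers, KRT16 and KRT19 are listed in MCF-10A and 0 in the other 2 cell lines. KRT16, a keratin of stressed epithelium, had 3036 and 3135 normalised counts after transit against 7012 and 7612, a log2 difference of -1.24 with a standard error of 0.06 (n = 2 per group), or -0.67 with TMM factors, and was not called. KRT19 had 0 reads in both constriction libraries against 5 and 21 and was called lower, as most genes of that table were. Of 9 mesenchymal and 7 blood cell markers, 0 are listed in any table. These short lists do not cover all such markers, and they do not allow a check of the MDA-MB-231 and LM2 labels.

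The genes whose pattern over the 4 libraries of a table lay closest to each of the 3 genes were found by the root mean square difference of row-centred log2(normalised count + 1), leaving out genes that averaged under 10 normalised counts. In MDA-MB-231, over 258 other genes, RN7SL3 was closest to RN7SL2 at 0.19, followed by HIST1H4A at 0.42 and the processed pseudogene AL355032.1 at 0.49. RN7SL3 had RN7SL2, HIST1H4A at 0.28 and ECM2 at 0.36. MALAT1 was closest to the antisense gene AC007319.1 at 0.14, the transcription factor gene ZBTB20 at 0.18 and the protocadherin gene PCDHGA8 at 0.18. ZBTB20 had normalised counts of 222 and 348 after transit against 83.7 and 121.

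In MCF-10A, over 1208 other genes, the closest to RN7SL2 were AL122010.1 at 0.20, FBLN5 at 0.24 and CDC20P1 at 0.25. FBLN5, which encodes an extracellular matrix protein of elastic fibres, had normalised counts of 457 and 20.7 after transit against 24.5 and 12.6. In LM2, over 51 other genes, the closest were farther off, with TYRO3P at 0.70, AL157786.1 at 0.72 and AC025031.2 at 0.76. By log2 difference, RN7SL2 ranked 6 of 259 genes in MDA-MB-231 and 6 of 52 in LM2, counted from the highest among genes with a mean of at least 10, and 111 of 1209 in MCF-10A. RN7SL3 ranked 9 and MALAT1 85 of the 259. The LM2 and MCF-10A ranks of RN7SL2 rest on differences that were 0.04 and -0.43 without constriction replicate 1.

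**Figure D4:**
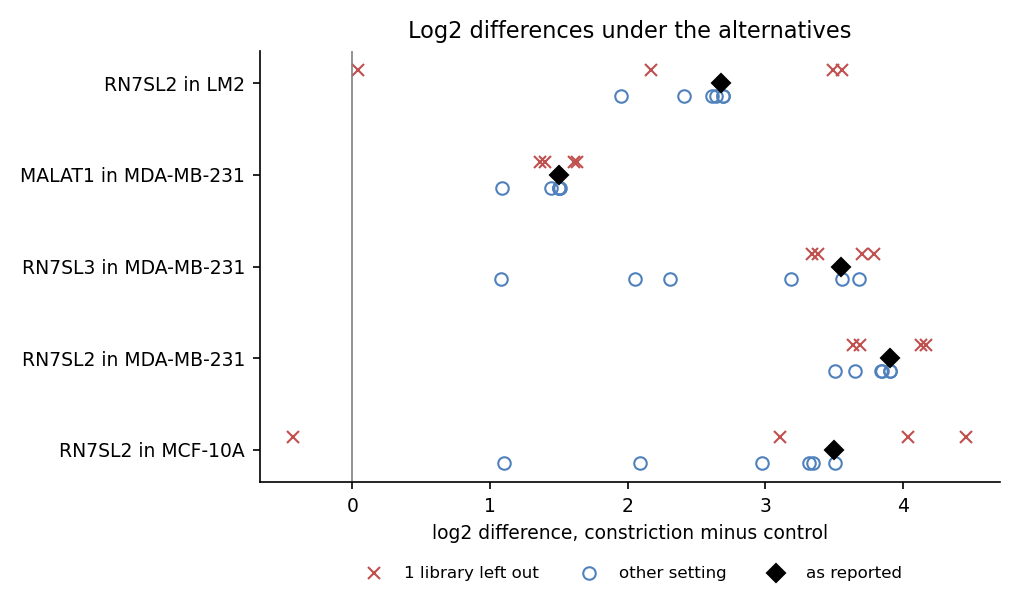
Log2 differences, constriction minus control, of the 3 genes in each table that lists them, as reported (black), with 1 library left out (crosses) and under the other settings (open circles). Without constriction replicate 1, RN7SL2 reaches -0.43 in MCF-10A and 0.04 in LM2, whereas in MDA-MB-231 RN7SL2 stays between 3.51 and 4.17, MALAT1 between 1.09 and 1.63 and RN7SL3 between 1.08 and 3.79.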

How the data were processed

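RNA of 12 samples was sequenced as paired reads. Per the labels and the study's methods, the authors filtered reads with fastp, aligned them to GRCh38 with HISAT2 2.0.5 and counted them per gene with featureCounts 1.5.0-p3, and deposited these counts. Size factors of DESeq2 1.20.0, computed by the authors 1 cell line at a time, turned them into the deposited normalised counts (signal). FPKM, also deposited, was computed by the authors from counts and gene lengths. The deposited tables also hold the authors' own comparison (a log2 fold change, an adjusted p-value and its p-value), of which the p-values served here only to recover the number of genes adjusted over (MCF-10A 19236, MDA-MB-231 23976, LM2 30209). Deposited lists of enriched terms were not used. How reads matching several genes were counted is not given in the sources used here, and whether the library was directional is not stated.

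Read totals and size factors were recovered from counts, normalised counts, FPKM and gene lengths. A count of 0 allows up to 3 reads, a normalised count of 2.37 to 3.81 depending on the library, for counting error only. A log2 difference is log2(mean normalised count + 1) after transit minus control, with a standard error from the 2 libraries of each group. Listed genes were tested within each table with edgeR 4.0.16 (quasi-likelihood, authors' size factors, two-sided), with Benjamini-Hochberg adjustment over the recovered numbers and unlisted genes at a p-value of 1. DESeq2 1.42.0 and limma 3.58.1 in R 4.3.3 were alternatives, with other pseudocounts and scalings, a minimum mean of 10, the replicate block and each library left out. The edgeR step was tested on simulated counts, and the outcome is not reported here. Named genes are the 3 genes, the listed genes of fixed lists (by name up to 12 per table, otherwise the 3 with the highest mean) and the 3 genes most like each. The 3 genes and the lists were chosen with earlier results of these data known. The ratios of constriction replicate 1 to 2 over the genes of a table and the shift of the median under other scalings were added after the values of this part had been seen. Sequences of the 7SL genes are not reported here. The sequence of MALAT1 comes from GENCODE release 29, in which the positions of 2679 of 2680 MCF-10A genes, 381 of 381 MDA-MB-231 genes and 97 of 97 LM2 genes match.

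In the study's supplement, each replicate experiment has its control and its constriction cells on 1 line, and libraries of 1 number were taken as pairs. As a check, the deviations of paired libraries from the means of their groups correlated at -0.0427, 0.0827 and -0.0317 over the listed genes of MCF-10A, MDA-MB-231 and LM2. For 1 LM2 constriction library the title gives replicate 2 and the description replicate 1, and the title was followed. The study's supplement gives far less total RNA from constriction than from control cells in MDA-MB-231 and LM2, and in MCF-10A less in replicate 1 and more in replicate 2. The part of this in the values was not tested.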

Additional observations from a re-analysis of the deposited data

How the results depend on the processing

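No scaling changed the sign of a log2 difference of RN7SL2, RN7SL3 or MALAT1. A pseudocount cannot change the sign, since the same value is added to the means of both groups. With TMM factors, which moved the median of all listed genes by -0.41 in MDA-MB-231, the differences there were 3.51 for RN7SL2, 3.19 for RN7SL3 and 1.09 for MALAT1. RN7SL3 has few reads and came to 2.31 with a pseudocount of 10, 2.05 on FPKM and 1.08 on RPM, where a pseudocount of 1 exceeds its control level. In MCF-10A, where TMM factors moved the median by -0.41, RN7SL2 came to 1.10 instead of 3.50 and HIST2H2AC to 1.09. In LM2 they moved the median by 0.25, with RN7SL2 at 2.69. With the replicate block, the differences were 3.91, 3.56 and 1.50 in MDA-MB-231 for RN7SL2, RN7SL3 and MALAT1, and 2.09 in MCF-10A and 1.95 in LM2 for RN7SL2. A block value is the mean of the log2 differences within pairs, so it differs from the main value in the averaging as well as in the pairing. With 1 library left out, RN7SL2 ran from -0.43 to 4.46 in MCF-10A and from 0.04 to 3.56 in LM2, the lowest value being the one without constriction replicate 1. HIST2H2AC in MCF-10A ran from -0.21, without that library, to 4.26. Shares and ratios of read counts within a library do not depend on the scaling between libraries, whereas FPKM ratios also divide by gene length.

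Counts of called genes moved more. DESeq2 called 2493 genes in MCF-10A, 47 of them higher, where edgeR called 4 higher of 2451. In MCF-10A, 2451 became 895 with a minimum mean of 10 (1209 genes tested) and 1611 with limma, and 0 to 557 with 1 library left out (without constriction replicate 2, 68 of 69 were higher, against 4 of 2451), while the block gave 1989. In MDA-MB-231, 1 (higher) became 17 with TMM factors (6 higher and 11 lower), 2 with the minimum mean, 86 with the replicate block, 9 with DESeq2 and 0 with limma, and 0 to 8 with 1 library left out. In LM2, 0 became 28 with the block. The causes were not tested. With a library left out, the lone library of a group is assumed to vary like the other group. The depth limits RN7SL3 in control cells, at 4 reads per library, and 2 libraries per group limit every standard error.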
